A study of Mus musculus with 16 samples.

Results

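Resting naive and resting memory phenotype CD8 T cells of the mouse were compared over all genes, using the 8 arrays labelled as resting of 16 in all. The 4 naive samples were CD8+Thy1.2+CD44lo cells and the 4 memory phenotype samples were CD8+Thy1.2+CD44hi cells, all from female C57BL/6N mice 7 weeks old. Every resting sample was sorted by flow cytometry and then kept for 4 h in medium with neither agent. The other 8 arrays hold the same kinds of cell after 4 h with 10 ng/ml of PMA and 500 ng/ml of ionomycin, and they are used here only for the spread in the model and for a comparison near the end. The labels give 4 independent sorts and cultures, name no antigen or infection, and do not say from which organ the cells came or how many mice were pooled. The memory phenotype is therefore defined here by a single surface protein.

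CD8 T cells that have not met antigen carry little CD44, recirculate through lymph nodes and divide rarely. CD44hi cells of laboratory mice are a mixture of cells that met antigen and cells that acquired the phenotype by homeostatic expansion, and in mice many of them carry receptors shared with NK cells. Cells of this kind are known for rapid interferon gamma production, ready-made cytotoxic proteins, receptors for inflammatory chemokines and dependence on IL-15, and T-bet and Eomes are the transcription factors most often linked to that program. In RNA from bulk samples, a change in the fraction of cells that carry a transcript and a change in the amount per cell cannot be told apart.

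Levels are given throughout as log2 of the processed signal of a probe minus the 75th percentile of its array, so that 0 is a signal at that percentile and a difference of 1 is 2-fold. A level is a property of 1 probe, so levels of different genes are not read as relative amounts of their transcripts. They do serve to group genes by level, and in medians and sums of lists per array. Between 60.6% and 64.3% of the spots were well above background on the naive arrays and between 63.9% and 66.5% on the memory phenotype arrays. Replicate arrays correlated at 0.978 to 0.995 among the naive and 0.983 to 0.994 among the memory phenotype samples over 18402 genes. Each of the 4 groups of the series was hybridised on a slide of its own, so slide and group cannot be told apart in any difference below.

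The sort was visible in the transcript of its marker. Cd44, the hyaluronan receptor used as the gate, had levels of -0.49, -0.58, -0.74 and -0.44 on the naive arrays and 3.61, 3.37, 3.50 and 3.46 on the memory phenotype arrays. The groups did not overlap, and the difference of 4.05 corresponds to 16.6-fold (adjusted p = 1.71e-09, limma). Another Cd44 probe gave a difference of 4.17, and the last of the 3, dim in both groups, gave 0.09. The transcripts of the proteins common to both gates did not pass the test: Cd8b1 was 7.53 ± 0.16 (SD, n = 4) in naive and 7.33 ± 0.06 (SD, n = 4) in memory phenotype cells, Cd8a 5.04 ± 0.39 and 5.23 ± 0.14, and Thy1 differed by 0.17 (adjusted p = 0.631).

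Of the 18402 genes tested, 2552 were higher in memory phenotype cells (13.9%) and 1409 were lower (7.66%) at an adjusted p under 0.05. With a difference of at least 2-fold the counts were 1297 (7.05%) and 235 (1.28%), and for 4156 genes (22.6%) the 8 levels did not overlap between the groups. The excess of higher genes lay among dim probes. In genes averaging a level under -4, 890 were higher and 137 lower with a median difference of 0.29, whereas at a mean level of 2 or more 181 were higher and 487 lower with a median of -0.14. Sensory receptor genes (odorant, vomeronasal and taste receptors), whose usual site is the sensory epithelia, moved the same way: of 413 tested, 133 were higher (32.2%) and 7 lower, with a median difference of 0.48 and a 95th percentile of 1.45. This count of higher genes was 194 without naive replicate 1, 85 without naive replicate 2, 75 without naive replicate 3 and 91 without memory phenotype replicate 1. It was 82 with the 8 resting arrays alone, 72 after quantile scaling, 65 in the authors' deposited table and 26 with normexp, a model-based background correction, where the median was 0.03. When genes whose level averaged 0 or above were tested alone, 479 were higher and 951 lower. The share of higher genes among all calls was 64.4%, and it was 48.6% after normexp and 50.2% in the authors' deposited table of signals. With the sort number as a block, 2970 genes were higher and 2425 lower. The count of lower genes was 871 without memory phenotype replicate 1, 902 without naive replicate 2 and 924 without naive replicate 3.

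**Figure D1:**
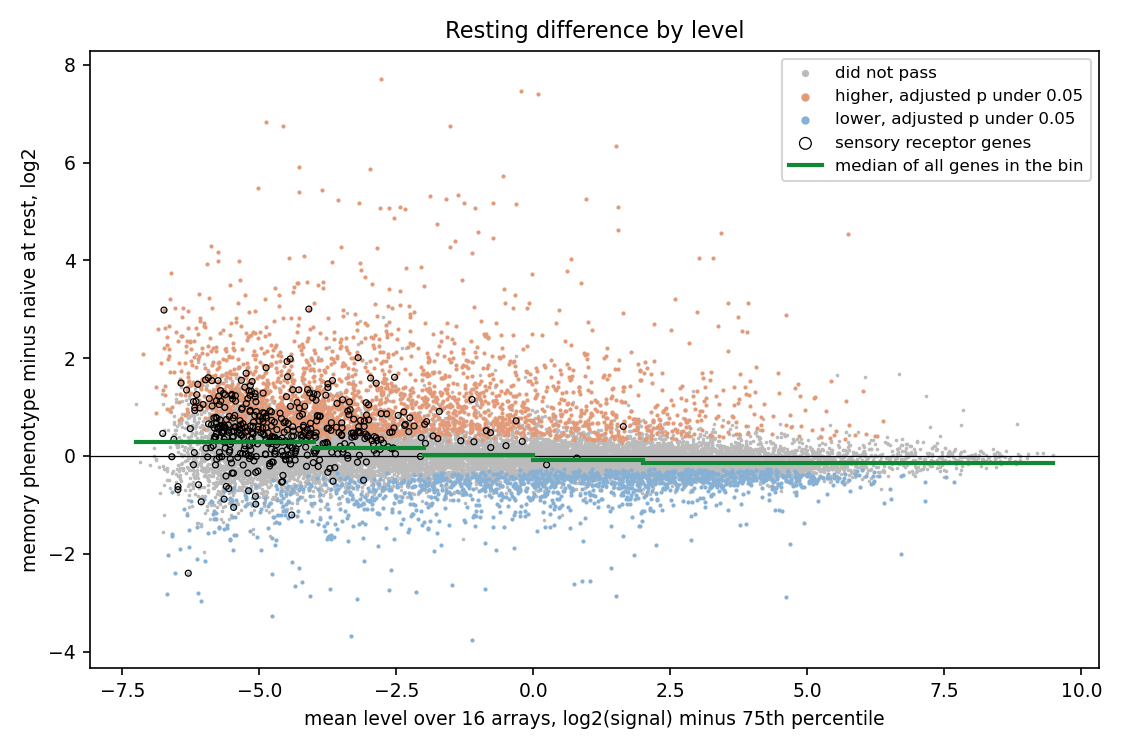
Resting difference (memory phenotype minus naive, log2) of each tested gene against its mean level over all 16 arrays (log2 signal minus the 75th percentile); coloured points passed the test, black circles are the 413 sensory receptor genes and green lines are the medians of all genes in each of 5 ranges of level. The medians run from 0.29 below a level of -4 to -0.14 at 2 or more, while the largest differences, above 4, stand clear of the sensory receptor genes, whose highest difference was 3.0045.

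On this scaling, a difference of less than about 1.45 in a dim gene is within the range of the central sensory receptor genes, and the genes described next were taken mainly from above that range. The cause of the shift of dim probes was not tested.

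The largest differences were those of lectin-like receptors of the NK gene complex on chromosome 6, which bind MHC class I and related ligands. Of 25 members tested 24 were higher and none lower, with a median difference of 5.07 beside -0.01 over all genes. The share over all genes, 13.9% higher and 7.66% lower, stands beside this and every count of list members below. The 25 members are gene names, and some of their probes are filed with accessions of other members. The count and the median may therefore hold the same transcript more than once. Some probes of the family have most of their bases in common, which bears on how far a value belongs to 1 gene, and 1 pair was compared. The probes named for Klra7 and Klra15, Ly49 receptors, are shown because they overlay with a shift of 4 bases: 44 of 56 overlaid bases are the same and the 12 that differ are in capitals. They lie at chr6:130245389-130245542 and chr6:130339680-130339738 of mm7.

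Klra7: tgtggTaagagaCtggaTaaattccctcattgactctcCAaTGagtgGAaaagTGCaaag
Klra15: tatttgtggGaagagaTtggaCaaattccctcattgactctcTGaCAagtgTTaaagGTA

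The probes with the greatest differences of this family, Klra4 and Klra23, read through all 60 bases without a stop codon in at least 1 frame. The Klra23 probe lies at chr6:130250722-130250781 of mm7 on the minus strand, and the files used here give no position for Klra4.

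Klra4: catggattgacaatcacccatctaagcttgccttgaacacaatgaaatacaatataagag
Klra23: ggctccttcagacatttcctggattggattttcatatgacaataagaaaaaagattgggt

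The probe given here as Klra4, through its accession, is named Klra22 in the files, and the other 2 probes that took the name Klra4 are Klra18 and Klra12 there, with differences of 3.96 and 5.89. The accessions filed with the Klra23 probe name Klra7, those with the Klra6 probe name Klra5 and Klra6, and those with the Klrc3 probe name Klrc1, Klrc2 and Klrc3. Values within these families are therefore uncertain as to the gene.

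The Klra23 probe had levels of -3.61, -3.48, -3.06 and -4.04 on the naive arrays and 3.98, 3.82, 4.01 and 3.86 on the memory phenotype arrays, a 177-fold difference (7.46 with a standard error of 0.31, adjusted p = 4.61e-10). The Klra7 probe rose from -3.10 ± 0.35 to 4.30 ± 0.07 (SD, n = 4 each), or 168-fold. The probe named for Klra16 rose 107-fold and that named for Klra15 38.3-fold, with the same uncertainty as to the gene. Klra4 was at background (that is, no array reached the scanner's mark for well above background) on every naive array and stood at 1.39, 1.24, 1.28 and 1.20 in memory phenotype cells, at least 119-fold higher (adjusted p = 4.94e-08), and Klra6 was at least 46.3-fold higher. Such a bound sets the bright group against the dimmest signal that counted as detected. In all of these the memory phenotype arrays lay within narrow ranges and the spread was wider on the naive side. The Klra16 probe was well above background on 3 of the 4 naive arrays.

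The NKG2 receptors, which pair with CD94 and read the class Ib molecule Qa-1, rose together with the Ly49 probes. Klrc1, which encodes the inhibitory NKG2A, had levels of -2.87, -2.94, -2.70 and -2.20 in naive and 3.62, 3.58, 3.70 and 3.74 in memory phenotype cells, an 80.8-fold difference (adjusted p = 1.97e-10). Klrc2 and Klrc3 both rose 36.3-fold, a difference of 5.18 for Klrc2, whose dimmer probe gave 2.98, with memory phenotype replicate 4 the lowest for Klrc2 at -1.88 and 1 of 4 naive arrays above background for that probe. Klrd1, which encodes the shared partner CD94, was the member of the 25 that did not pass, at 5.62 ± 0.25 in naive and 5.74 ± 0.20 in memory phenotype cells (SD, n = 4 each, adjusted p = 0.823). Klrk1, encoding the activating receptor NKG2D, was at background on every naive array and at least 19.3-fold higher in memory phenotype cells. Klre1 was at least 17.4-fold higher by its brighter probe, while a second probe gave a difference of 1.19.

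Klrg1, a receptor for cadherins that marks effector-type cells, varied more between replicates. Its levels were -4.51, -5.60, -5.57 and -6.38 in naive and 0.61, -0.05, 0.10 and -1.80 in memory phenotype cells, a difference of 5.23 with a standard error of 0.52 (adjusted p = 3.31e-06). Replicate 1 was the highest and replicate 4 the lowest in both groups, and 2 of 4 naive arrays were well above background. Klrb1c, which encodes NK1.1, rose from -3.28 ± 0.49 to -0.71 ± 0.52 (SD, n = 4 each), 5.94-fold.

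**Figure D2:**
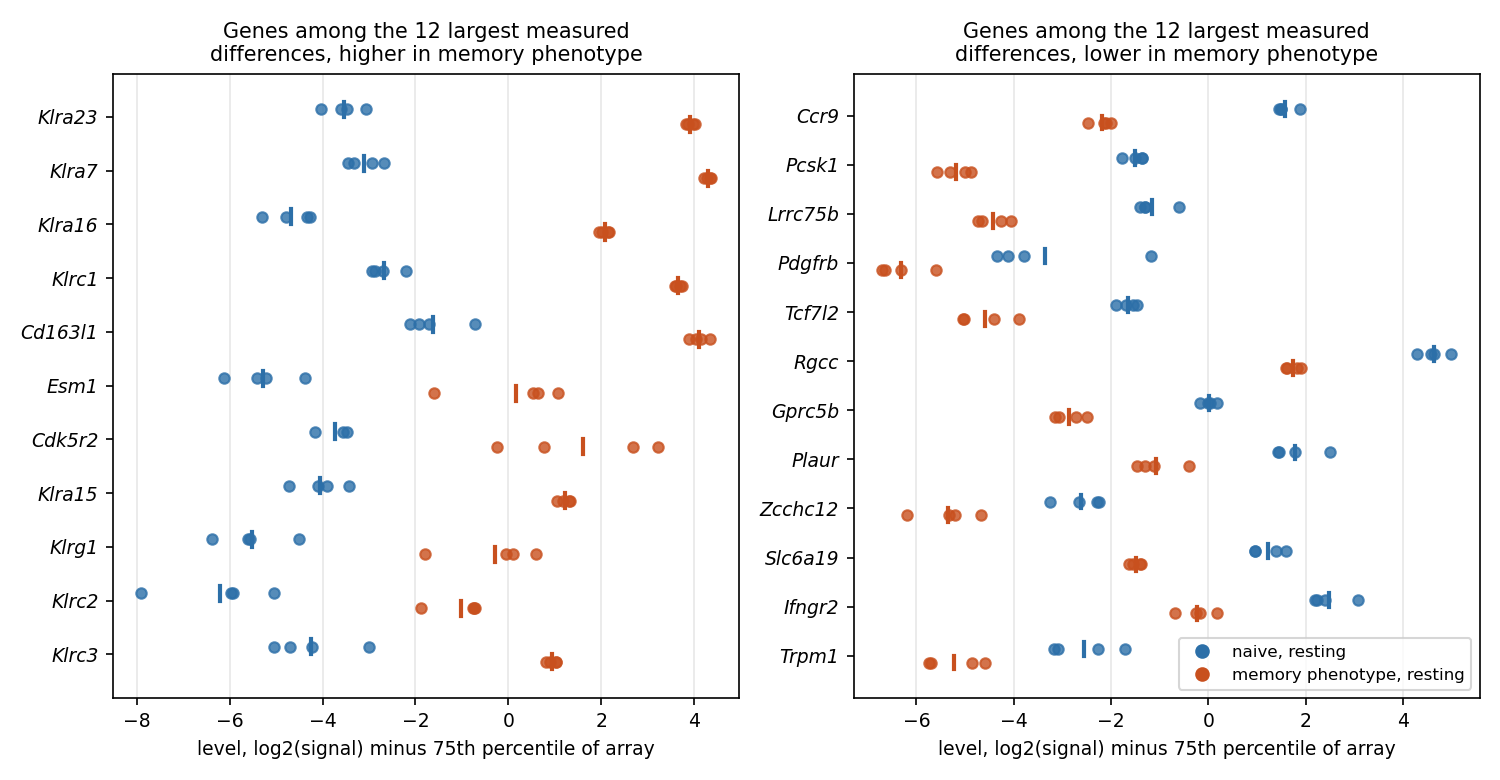
Level of genes among the 12 largest measured differences in either direction on the 8 resting arrays (log2 signal minus the 75th percentile of the array); each point is 1 array, blue naive and orange memory phenotype, and ticks are group means. No pair of groups overlaps, as the choice of genes required, and Klra23, Klra7 and Klrc1 show memory phenotype arrays close together, while Cdk5r2 spans -0.24 to 3.23.

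Others among the largest differences belong to different families. Cd163l1, a scavenger receptor best known from gamma delta T cells, had levels of -0.72, -1.93, -2.11 and -1.70 in naive and 4.34, 4.05, 3.90 and 4.14 in memory phenotype cells, 52.8-fold (adjusted p = 1.05e-08). Esm1, which encodes the secreted proteoglycan endocan, rose 43.6-fold, with levels of 1.06, 0.64, 0.54 and -1.60 in memory phenotype cells and 2 of 4 naive arrays above background. Dmrta1, a DM-domain transcription factor, was at background on every naive array and at least 24.4-fold higher, with memory phenotype levels of -1.07, -0.93, -0.94 and -1.25. Cdk5r2, an activator of the kinase CDK5, ranged over 3.23, -0.24, 2.69 and 0.77 in memory phenotype cells against -3.55, -3.47 and -4.16 in naive replicates 2 to 4. The spot of naive replicate 1 was an outlier by the scanner's own mark and was left out of that fit.

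Cytotoxic granule proteins were higher in memory phenotype cells in 10 of 14 tested and lower in 1 (2 with the sort number as a block), with a median difference of 1.51. Without the detection filter 9 of 18 were higher and 1 lower, with a median of 1.10. Gzmk, a tryptase-type granzyme, was at background on every naive array and reached 0.36, 0.13, 0.03 and -0.75 in memory phenotype cells, at least 48.4-fold higher (adjusted p = 1.56e-09). Gzma, the most widespread tryptase-type granzyme, had levels of -2.94, -3.18, -3.22 and -3.82 in naive and 2.54, 1.99, 1.85 and 0.72 in memory phenotype cells, 33.4-fold. Gzmb, which cleaves after aspartate and activates caspases, had 2.50, 1.11, 1.55 and 0.18 in memory phenotype against -2.72, -3.54, -3.02 and -3.86 in naive cells, 24.6-fold (adjusted p = 4.75e-05). For these 3 granzymes memory phenotype replicate 1 was the highest and replicate 4 the lowest. Gzmm rose 8.11-fold with all 4 memory phenotype arrays between 1.37 and 1.76. Prf1, which encodes the pore-forming perforin, did not pass, at -0.42 ± 1.04 and 0.51 ± 0.61 (SD, n = 4 each, adjusted p = 0.177). Ctsc, the protease that activates progranzymes, was the lower member, by 0.49 (adjusted p = 0.0111).

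The probe of Gzmk has 1 frame open over all its 60 bases, lies at chr13:110327790-110327849 of mm7 on the minus strand, and is shown as the measured stretch of the granzyme with the largest difference.

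Gzmk: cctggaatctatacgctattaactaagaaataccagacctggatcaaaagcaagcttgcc

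Promoters were read for the 13 of 14 granule genes with an entry among RefSeq promoters (GRCm38.p6, the 250 bases before the start). TCACACC or its reverse complement, the core of the T-box element bound by T-bet and Eomes, occurred in 3 of 13 (Ctsc, Gzmk and Nkg7) beside 3.31% of 27025 promoters. TGTGGTT or its reverse complement, the Runx element, occurred in 4 of 13 (Gzma, Gzmb, Gzmc and Gzmd, the last pair being near copies) beside 4.455%. TGANTCA, the AP-1 element, occurred in 1 of 13, Gzmb, beside 6.87%. The T-box match of Gzmk and the Runx matches of Gzma and Gzmb, genes with large differences, are in capitals, 75, 51 and 34 bases before the start. The AP-1 match of Gzmb, 58 bases before it, is left in lower case. They are chr13:113180966-113181215, chr13:113100982-113101231 and chr14:56262335-56262584, all on the minus strand, and a match in letters says nothing on binding.

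Gzmk promoter: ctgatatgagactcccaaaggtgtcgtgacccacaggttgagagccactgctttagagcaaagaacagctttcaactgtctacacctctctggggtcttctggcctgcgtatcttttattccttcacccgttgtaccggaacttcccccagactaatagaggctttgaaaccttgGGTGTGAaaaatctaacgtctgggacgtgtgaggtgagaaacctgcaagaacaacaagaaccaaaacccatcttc
Gzma promoter: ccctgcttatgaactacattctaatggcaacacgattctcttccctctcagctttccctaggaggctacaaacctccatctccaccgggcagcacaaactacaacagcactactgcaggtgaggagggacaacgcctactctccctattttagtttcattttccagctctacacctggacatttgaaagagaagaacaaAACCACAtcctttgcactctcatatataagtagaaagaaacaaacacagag
Gzmb promoter: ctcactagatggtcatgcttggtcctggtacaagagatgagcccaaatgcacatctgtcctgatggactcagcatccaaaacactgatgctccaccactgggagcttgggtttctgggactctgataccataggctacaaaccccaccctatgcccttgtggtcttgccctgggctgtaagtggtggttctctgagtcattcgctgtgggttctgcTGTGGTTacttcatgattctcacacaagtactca

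The machinery that docks and fuses granules differed less. Of 14 members 3 were higher, none was lower (1 with the sort block) and the median difference was 0.04. Sytl2, a Rab27 effector, rose 4.94-fold with levels of -0.80, -1.28, -1.26 and -0.82 in memory phenotype cells, and Lyst and Stx11, both mutated in inherited defects of cytotoxicity, rose 1.58-fold and 1.71-fold. Rab27a, at 0.31 ± 0.07 and 0.21 ± 0.12, and Unc13d, at 2.24 ± 0.27 and 2.27 ± 0.04 (SD, n = 4 each), did not pass.

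Cytokines and chemokines were higher in 13 of 29 tested and lower in 1 (none without memory phenotype replicate 4). Beside these 44.8% higher stand 13.9% over all genes and 32.2% of the sensory receptor genes, which like many of this list are dim. Ccl5, a chemokine that memory CD8 T cells hold as stored message, had levels of 3.28, 2.59, 2.53 and 2.87 in naive and 7.36, 7.25, 7.30 and 7.47 in memory phenotype cells, 23.1-fold (adjusted p = 4.12e-11). Fasl, the death ligand, rose 35.5-fold from -4.27 ± 0.52 to 0.88 ± 0.32 (SD, n = 4 each). Xcl1, the chemokine for cross-presenting dendritic cells, rose 7.68-fold. Ifng, without stimulation, had levels of -1.71, -2.29, -2.57 and -1.98 in naive and 0.28, 0.58, 0.67 and 0.58 in memory phenotype cells, 6.35-fold (adjusted p = 3.43e-08). The chemokines Ccl3 and Ccl4 both differed by 1.53. Tnf did not pass, at -0.92 ± 0.26 and -1.37 ± 0.45 (SD, n = 4 each, adjusted p = 0.221). Il17a, Il21, Il22, Ccl1 and Csf2 were not well above background on any resting array, so no resting difference can be given for them.

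Chemokine receptors were higher in 11 of 15 tested and lower in 1, with a median difference of 1.14. Without the detection filter 11 of 18 were higher and 1 lower, with a median of 0.94. Ccr2, a receptor for inflammatory chemokines, rose 36.1-fold, from levels of -3.51, -3.26, -3.37 and -4.41 in naive to 1.98, 1.68, 1.53 and 0.96 in memory phenotype cells (adjusted p = 2.42e-08). Cxcr3, which guides T cells to interferon-induced chemokines, had 0.03, -0.54, -0.55 and 0.16 in naive and 4.02, 4.33, 4.25 and 4.73 in memory phenotype cells, 23.5-fold (adjusted p = 2.22e-09). Cxcr5, the follicular homing receptor, rose 16.2-fold to levels between 2.89 and 3.02. Ccr9, the receptor for the gut and thymus chemokine CCL25, went the other way and had the largest lower difference among measured genes, with 1.88, 1.44, 1.50 and 1.48 in naive and -2.10, -2.15, -2.01 and -2.47 in memory phenotype cells, 13.5-fold lower (adjusted p = 5.51e-09). Ccr7, the lymph node homing receptor, was 5.62 ± 0.49 and 5.38 ± 0.18 (SD, n = 4 each) and did not pass (adjusted p = 0.488).

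Among 27 cytokine receptors 12 were higher and 3 lower (6 with the sort block). Those of IL-18 and IL-12, cytokines that drive interferon gamma without antigen, were among the higher. Il18rap rose 14.5-fold from -3.04 ± 0.48 to 0.82 ± 0.27, Il18r1 differed by 1.80, Il12rb1 rose 4.68-fold and Il12rb2 differed by 1.85. Il2rb, the receptor chain for IL-15 and IL-2, differed by 0.92 (adjusted p = 0.00609) and Il15ra, which presents IL-15, by 1.36. Il7r did not pass, at 5.82 ± 0.23 and 5.67 ± 0.26 (SD, n = 4 each). Ifngr2, the signalling chain of the interferon gamma receptor, had levels of 3.08, 2.39, 2.23 and 2.19 in naive and 0.17, -0.26, -0.17 and -0.68 in memory phenotype cells, 6.54-fold lower (adjusted p = 4.80e-07). Ifngr1, the ligand-binding chain, differed by 0.32 and did not pass (adjusted p = 0.491).

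Of 21 adhesion genes 3 were higher and 3 lower (14.3% each), beside 13.9% and 7.66% over all genes. The higher members were 7 without naive replicate 1 and 5 with the sort block. Itgae, which encodes the CD103 chain that binds E-cadherin, had levels of 3.70, 3.15, 3.15 and 3.12 in naive and 1.01, 0.68, 0.67 and 0.53 in memory phenotype cells, 5.88-fold lower (adjusted p = 4.49e-08). Its probe is shown as the measured part of a gene that is lower, and its 60 bases align across an intron at chr11:73227177-73228635 of mm7.

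Itgae: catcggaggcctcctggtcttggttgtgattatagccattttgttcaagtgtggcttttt

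Itgb1, the common partner of the very late antigens, rose 3.21-fold, with all 4 memory phenotype arrays between 0.76 and 1.12. Itgax, encoding CD11c, rose 5.66-fold by its brighter probe, while its second probe differed by 0.69. Itga4 fell by 1.05 on the log2 scale (adjusted p = 0.0435), a call lost without any of memory phenotype replicate 1, naive replicates 2 and 3 or memory phenotype replicate 4, and after quantile scaling (adjusted p = 0.0613). Enzymes that build selectin ligands were higher in 6 of 12 tested and lower in none. Gcnt1, the core 2 branching enzyme, rose 7.87-fold (2 of 4 naive arrays above background), and Fut7, the fucosyltransferase that completes the ligand, rose 2.32-fold.

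The transcription factors of memory and effector cells were higher in 15 of 22 tested and lower in 2 (1 without any of memory phenotype replicates 2 and 3 and naive replicate 4), with a median difference of 1.03. Tbx21, which encodes T-bet, had levels of -0.26, -0.61, -0.74 and 0.23 in naive and 3.86, 3.66, 3.60 and 3.69 in memory phenotype cells, 16.6-fold (adjusted p = 1.77e-09). Eomes, its T-box relative, rose from 0.22 ± 0.44 to 2.19 ± 0.21 (SD, n = 4 each). Runx2 rose 11.7-fold and Irf8 5.97-fold. Zbtb32, a zinc finger repressor, was at background on every naive array and at least 8.15-fold higher. Zeb2, Prdm1 (which encodes Blimp-1), Gata3 and Hopx differed by 2.48, 1.68, 1.76 and 1.79. Irf4, which follows antigen receptor signals, was lower by 1.06 (adjusted p = 0.000139). Id2 and Runx3 did not pass by their brighter probes, with differences of -0.51 (adjusted p = 0.0514) and 0.64 (adjusted p = 0.216), but their dimmer probes passed in limma over all probes, at -0.69 (adjusted p = 0.0358) and 0.96 (adjusted p = 0.0135).

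The factors of naive and stem-like cells differed less, with 4 of 20 lower (8 without naive replicate 4), 1 higher (2 with the sort block) and a median of -0.25. Lef1 had levels of 6.21, 6.08, 5.97 and 5.97 in naive and 5.16, 5.33, 5.22 and 5.22 in memory phenotype cells, 1.78-fold lower (adjusted p = 0.000128). Tcf7, the other T cell factor of the Wnt pathway, was 5.78 ± 0.03 and 5.90 ± 0.09 (SD, n = 4 each) and did not pass. Sox4 was 2.23-fold and Klf7 1.85-fold lower. Probes of Klf2 and Bach2 disagreed in direction. The Klf2 probe counted here differed by 1.62 and did not pass, while its other probe passed at -0.73 (adjusted p = 0.00513, limma over all probes). Bach2 differed by -0.35 and did not pass, while a dim probe passed at 1.77 (adjusted p = 5.01e-05, limma over all probes). Myb was 1.98-fold higher (adjusted p = 0.0336), a call lost without any single one of 6 of the 8 resting arrays.

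Genes known from naive T cells were lower in 11 of 24 tested and higher in none, beside 7.66% lower over all genes. Rgcc, a regulator of cell cycle kinases, had levels of 4.99, 4.65, 4.58 and 4.30 in naive and 1.91, 1.59, 1.62 and 1.81 in memory phenotype cells, 7.43-fold lower (adjusted p = 1.34e-06). Trib2, a pseudokinase, was 4.06-fold lower, with naive levels between 2.88 and 3.24 and memory phenotype levels between 0.78 and 1.28. Gpr83, a G protein-coupled receptor, was 4.43-fold and Amigo2, an adhesion protein, 2.88-fold lower. Dapl1, Ramp1, Igfbp4 and Ssbp2 were lower by 1.42, 1.49, 1.16 and 1.02. The 13 members that did not pass include Ccr7, Il7r and S1pr1.

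Several of the largest lower differences lie outside these lists. Pcsk1, a prohormone convertase, had levels of -1.77, -1.37, -1.51 and -1.36 in naive and -5.57, -4.88, -5.00 and -5.32 in memory phenotype cells, 12.9-fold lower (adjusted p = 2.94e-08). Lrrc75b was 9.67-fold lower. Slc6a19, a transporter of neutral amino acids, was 6.57-fold lower, with naive levels of 1.59, 0.96, 0.96 and 1.39 and memory phenotype levels between -1.63 and -1.38. Plaur, the urokinase receptor, was 7.25-fold and Gprc5b, an orphan receptor, 7.31-fold lower. Tcf7l2, another Wnt pathway factor, was 7.64-fold lower by its brighter probe, but its second probe differed by -0.31 (adjusted p = 0.580). Trpm1, a cation channel, was 6.32-fold lower by the brighter probe and 0.47 higher by a second that did not pass. Zcchc12, a zinc finger protein, was 6.70-fold lower. Zcchc12 was above background on 1 of 4 memory phenotype arrays and Trpm1 on 2. Pdgfrb, a growth factor receptor of stromal cells, was 7.78-fold lower but naive replicate 2 stood apart at -1.18, against -3.80, -4.11 and -4.34 in the other naive samples, and 1 memory phenotype array was above background. Of genes not well above background in memory phenotype cells the bounds were small, the largest being 2.12 for Hbegf, a growth factor of the EGF family.

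**Figure D3:**
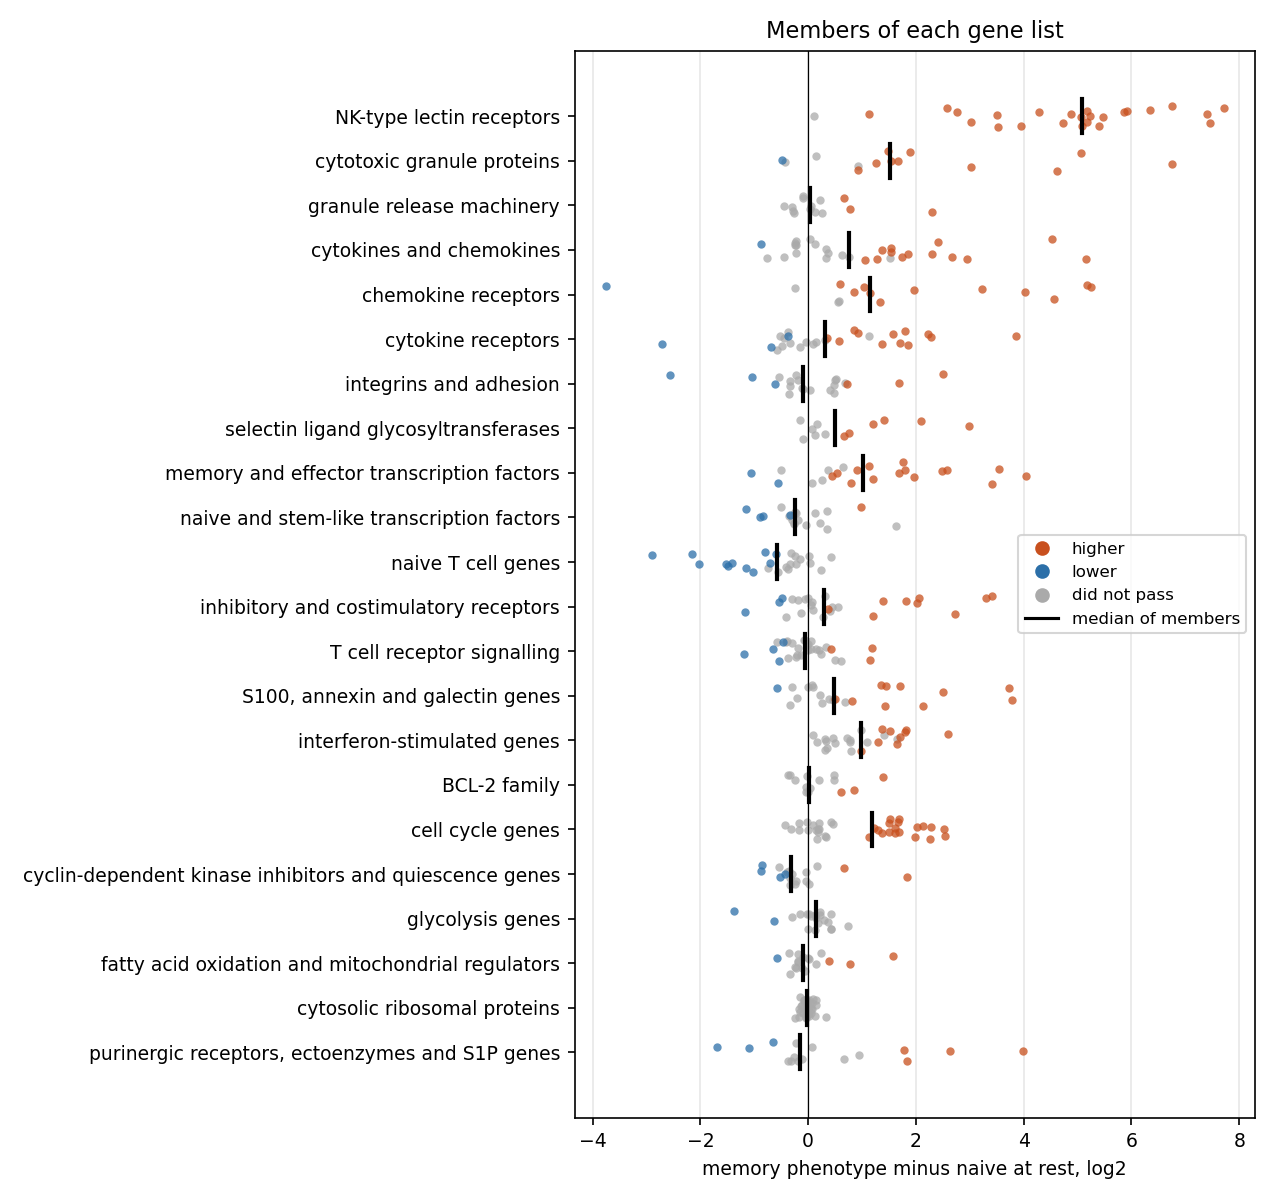
Difference at rest (memory phenotype minus naive, log2) of every tested member of the 22 gene lists; each dot is a gene, orange or blue where it passed as higher or lower, grey where it did not pass, and black ticks are medians. NK-type lectin receptors lie furthest to the right with a median of 5.07, naive T cell genes furthest to the left with a median of -0.58, and cytosolic ribosomal proteins lie at 0 with none past the threshold.

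Inhibitory and costimulatory receptors were higher in 9 of 26 tested and lower in 3. Pdcd1, which encodes PD-1, had levels of -0.57, -1.28, -1.38 and -1.50 in naive and 1.79, 1.47, 1.46 and 1.48 in memory phenotype cells, 6.65-fold (adjusted p = 6.37e-08). Havcr2, which encodes TIM-3, rose 9.84-fold by its brighter probe, and Lag3 was at background on every naive array and at least 5.24-fold higher. Cd244a and Slamf7, both of the SLAM family, rose 4.04-fold and 4.15-fold, while their relative Slamf1 was lower by 1.18 (adjusted p = 4.42e-05). Cd27 and Cd28 did not pass, with differences of -0.01 and 0.41 (adjusted p = 0.972 and 0.146).

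Proximal signalling of the T cell receptor was called in 3 of 29 members as higher and 4 as lower (10.3% and 13.8%), beside 13.9% and 7.66% over all genes. With the sort number as a block these counts were 5 and 8. Rasgrp1, which activates Ras downstream of the receptor, had levels of 3.57, 3.49, 3.53 and 3.52 in naive and 2.43, 2.39, 2.58 and 1.98 in memory phenotype cells, 2.27-fold lower (adjusted p = 1.29e-05). Cd247, the zeta chain, was 1.57-fold lower, and Sla and Ubash3b, negative regulators of the receptor, were 2.28-fold and 2.20-fold higher. Lck and Zap70, the first kinases of the pathway, did not pass (adjusted p = 0.989 and 0.832).

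S100, annexin and galectin genes, which bind calcium, membranes or glycans, were higher in 10 of 22 tested and lower in 1. S100a4 had levels of -0.72, -1.49, -1.24 and -0.94 in naive and 2.78, 2.46, 2.61 and 2.93 in memory phenotype cells, 13.8-fold (adjusted p = 1.84e-09). S100a6 rose 13.2-fold, and the beta-galactoside lectins Lgals3 and Lgals1 rose 5.64-fold and 4.36-fold. Their relatives S100a10 and S100a11 did not pass.

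Cell cycle genes were higher in 19 of 36 tested and lower in none (1 with the sort block or without naive replicate 1), with a median of 1.18. Some members are dim, and beside these 52.8% higher stand 13.9% over all genes and 32.2% of the sensory receptor genes. Mki67, the proliferation marker, had levels of 0.68, 0.04, 0.15 and 0.00 in naive and 3.17, 2.41, 2.47 and 1.90 in memory phenotype cells, 4.83-fold (adjusted p = 1.27e-05). Ccna2, cyclin A, had -2.05, -2.48, -2.54 and -2.72 against 0.89, 0.00, 0.07 and -0.63, 5.78-fold. The mitotic kinases Aurkb and Bub1 rose 5.83-fold and 4.79-fold, and Birc5, Cdk1 and Tyms differed by 1.98, 1.69 and 1.51. The replicative helicase subunits Mcm2, Mcm3, Mcm5 and Mcm6 did not pass, with differences between 0.00 and 0.20, nor did Pcna, the polymerase clamp. Cdc6, which loads the helicase, passed at 1.31. Its probe was dim, at -3.91 in naive and -2.60 in memory phenotype cells, so this is within the range of the central sensory receptor genes. The D cyclins Ccnd1, Ccnd2 and Ccnd3 did not pass either. Of inhibitors of the cycle and quiescence genes, 4 of 18 were lower and 2 higher. Leaving out any 1 of naive replicates 2, 3 and 4 or memory phenotype replicates 2 and 3 left 2 lower, and the sort block gave 7. Tsc22d3, which encodes GILZ, was 1.84-fold lower and Cdkn2c, which encodes p18, 1.58-fold higher.

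Interferon-stimulated genes were higher in 9 of 25 tested and lower in none, and this count turned on single arrays. The median level of the list was 1.97 on memory phenotype replicate 1 and 0.27, 0.41 and -0.19 on replicates 2 to 4, and it was 0.22 on naive replicate 1 and -0.77, -0.66 and -0.54 on naive replicates 2 to 4. Mx1, an antiviral GTPase, had -3.74, -4.76, -4.50 and -4.24 in naive and 0.14, -2.37, -1.80 and -2.81 in memory phenotype cells, 6.07-fold (adjusted p = 0.00355). Usp18 and Rtp4 rose 3.48-fold and 3.24-fold, and both calls were lost without memory phenotype replicate 1 (adjusted p = 0.0934 and 0.0589). The Usp18 call was also lost without any of naive replicates 2, 3 and 4. Without memory phenotype replicate 1, 4 members were higher, without naive replicate 2 or naive replicate 3 there were 5, and with the sort number as a block there were 16.

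**Figure D4:**
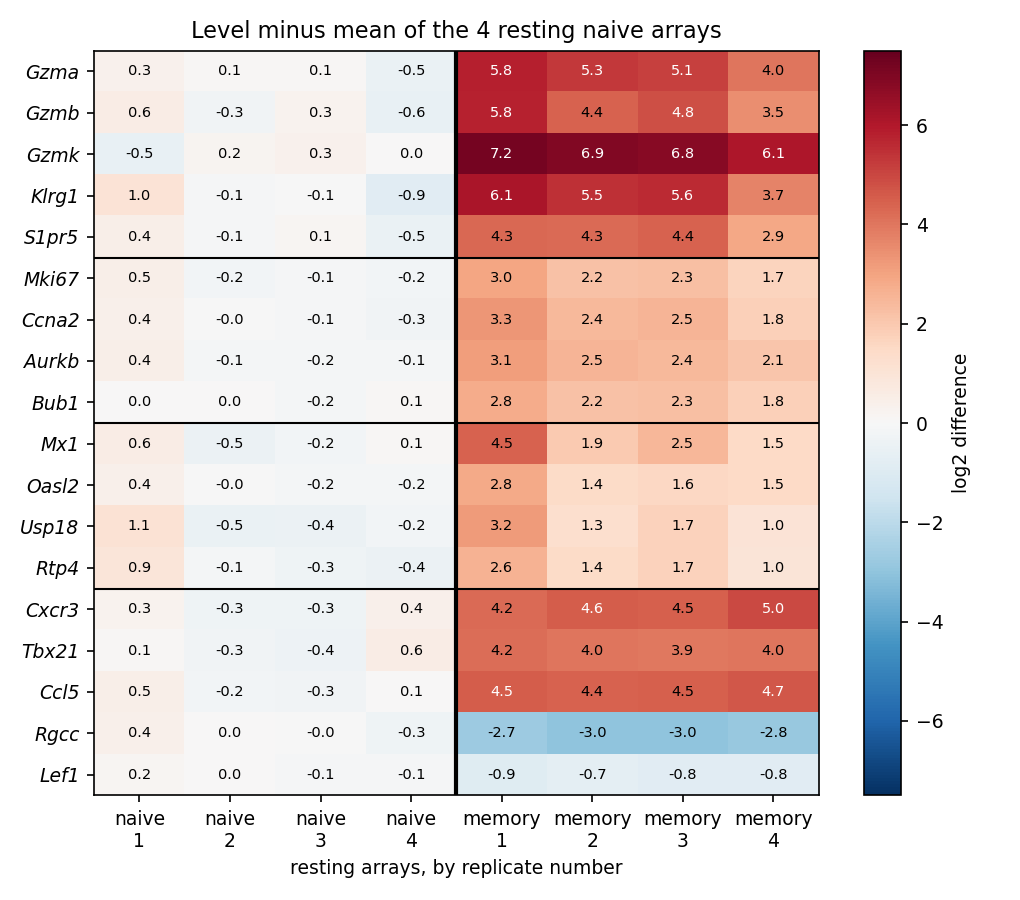
Level of 18 genes on each resting array minus the mean of the 4 naive arrays (log2), with columns the arrays by sort number and red higher than the naive mean. The genes were chosen after their values were seen. In the first 3 blocks memory phenotype replicate 1 is the highest for every gene but S1pr5, and replicate 4 is the lowest for every gene but Oasl2, whereas Cxcr3, Tbx21, Ccl5, Rgcc and Lef1 vary little among the memory phenotype arrays; Gzmk and S1pr5 were not well above background in naive cells.

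Survival and metabolic genes had few calls. Of the BCL-2 family 3 of 14 were higher and none lower, with 1 lower under the sort block, without naive replicate 1 or without memory phenotype replicate 4, and 1 higher without naive replicate 2. Bcl2a1b, an antiapoptotic member with near copies, rose 2.61-fold, whereas Bcl2 (0.84) and Bcl2l11, which encodes Bim (0.62), passed at adjusted p = 0.0358 and 0.0176, and both calls were lost without some single arrays, among them naive replicate 2. The other 2 probes of Bcl2 differed by 1.20 and 1.24. Glycolysis genes were lower in 2 of 20 tested and higher in none (2 with the sort block or without naive replicate 1), led by Ldhb at 2.60-fold lower, with naive levels of 1.97, 1.66, 1.68 and 1.61 and memory phenotype levels between 0.28 and 0.40. Ldha and Gapdh did not pass. Of 18 fatty acid oxidation genes and mitochondrial regulators 3 were higher and 1 lower (16.7% and 5.56%), beside 13.9% and 7.66% over all genes. The lower member was Acadm, an acyl-CoA dehydrogenase, by 1.50-fold, and 2 were lower without naive replicate 1. Cpt1a, which admits long-chain fatty acids to mitochondria, differed by 0.24 and did not pass (adjusted p = 0.469). None of 38 cytosolic ribosomal protein genes passed in either direction in the limma fit, 1 was higher at an unadjusted p under 0.05, and their differences ran from -0.25 to 0.32 with a median of -0.02. After quantile scaling 2 were higher, and by the authors' deposited table the counts were 2 higher and 1 lower.

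Of purinergic, ectoenzyme and sphingosine phosphate genes 4 of 16 were higher and 3 lower. S1pr5, a sphingosine phosphate receptor of effector and NK cells, was at background on every naive array and had levels of -1.64, -1.69, -1.53 and -3.04 in memory phenotype cells, at least 12.5-fold higher. Adora2a, the adenosine receptor, rose 3.44-fold, and Entpd1, which encodes CD39, rose 6.18-fold with 1 of 4 naive arrays above background. Art2b, Cd69 and Dpp4 were lower by 1.70, 1.10 and 0.65.

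Markers of other cells moved with some of these groups. NK or NKT cell markers were higher in 7 of 9 tested, and their summed linear level, in units of the 75th percentile, was 4.24 to 7.98 on naive and 7.51 to 12.2 on memory phenotype arrays. Gzma, Klre1, Klrb1c and Cd244a of that list are also members of lists above. Ncr1, the defining NK receptor, was at background on every naive array and on 1 memory phenotype array. Markers of gamma delta or innate-like T cells were higher in 5 of 6 tested, of 8 on the array. Their sums were 0.412 to 0.984 on naive and 19.0 to 26.1 on memory phenotype arrays, of which Cd163l1 and 5830411N06Rik (23.8-fold) make up nearly all. Tcrg-C was at least 3.37-fold higher in memory phenotype cells, and Il23r and Il1r1 were not well above background on any resting array. Il23r, which is among the 5, passed the fit all the same, at 1.52, and its difference was -0.03 after normexp correction (adjusted p = 0.901).

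Dendritic cell and MHC class II markers were higher in 6 of 8 tested, with sums of 1.93 to 8.64 and 5.57 to 10.3, and Itgax and Xcr1 of that list are members of lists above. H2-Ab1 rose 3.28-fold, from levels of -1.49, -1.15, -0.99 and -0.98 to 0.98, -0.05, 0.48 and 0.84, while Cd74, the invariant chain, did not pass. Monocyte, macrophage and neutrophil markers were higher in 2 of 11 and, with the sort block, 4 (Lyz2 2.87-fold and Cd14 2.16-fold), with sums of 8.63 to 14.6 and 14 to 22.6. CD4 or regulatory T cell markers were higher in 3 of 5, led by Zbtb7b at 10.8-fold (1 of 4 naive arrays above background), with Cd40lg not well above background on any resting array, Cd4 not past the threshold and sums of 2.80 to 3.76 and 3.92 to 5.19. B cell markers were higher in 1 of 6, or 3 without naive replicate 1 (sums of 1.68 to 2.24 and 1.44 to 1.66) and erythrocyte or platelet markers in 1 of 2, or both without naive replicate 4 (0.0968 to 0.177 and 0.209 to 0.305). T cell markers summed to 375 to 547 and 404 to 462. The part of other cells in the differences above was not tested.

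Where a gene above had several tested probes, the value is that of the brightest. At least 1 dimmer probe did not pass, with a difference in the same direction, for Cd247, Cdc6, Dpp4, Itga4, Lyz2, Myb, Ssbp2, Tsc22d3 and Tyms. Dimmer probes that passed gave 4.04 for Fasl, 1.37 for Havcr2, 1.34 to 3.25 for the 4 of Zeb2, -2.55 for Pcsk1 and -2.77 for Igfbp4.

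The same contrast can be read in the 8 stimulated arrays, which share no array with the resting contrast. There 1858 genes were higher (10.1%) and 2601 lower (14.1%) in memory phenotype cells. Of the 2552 genes higher at rest, 695 were higher, 699 lower and 1158 did not pass after stimulation. Of the 1409 lower at rest, 309 were lower, 62 higher and 1038 did not pass. Among genes at least 2-fold higher at rest the split was 490 higher and 306 lower of 1297, and among those at least 2-fold lower it was 123 lower and 7 higher of 235. The sensory receptor genes went the other way after stimulation, with 33 higher and 132 lower of 413. Of genes called at rest whose level averaged 0 or above, 168 of 452 higher genes were also higher after stimulation (37.17%). Of the lower genes at that level, 120 of 836 were also lower (14.35%). In the opposite direction were 99 of those 452 genes and 30 of those 836. Over all genes the shares after stimulation were 10.1% higher and 14.1% lower, and the lower share of 14.35% is near the latter. The shares over all genes include dim genes, so the sets differ in level and no excess or lack of one is read from them.

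Single genes differed in how far the resting difference held. Ccr9 was lower by 3.76 at rest and 3.56 after stimulation, with no passing change of the difference (interaction adjusted p = 0.674). Of the NK-type lectin receptors 23 of 25 were higher after stimulation too, with a median of 4.58. Tbx21 was higher by 4.05 at rest and lower by 1.90 after stimulation, an interaction of -5.95 (adjusted p = 2.03e-09). Irf8 was higher by 2.58 at rest and differed by -0.11 after stimulation, and S1pr5 by 3.98 and -0.30. Rgcc, lower by 2.89 at rest, differed by 0.16 after stimulation (interaction adjusted p = 4.34e-05). Il18rap and S100a6 were higher by 3.86 and 3.72 at rest and by 5.33 and 5.14 after stimulation.

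**Figure D5:**
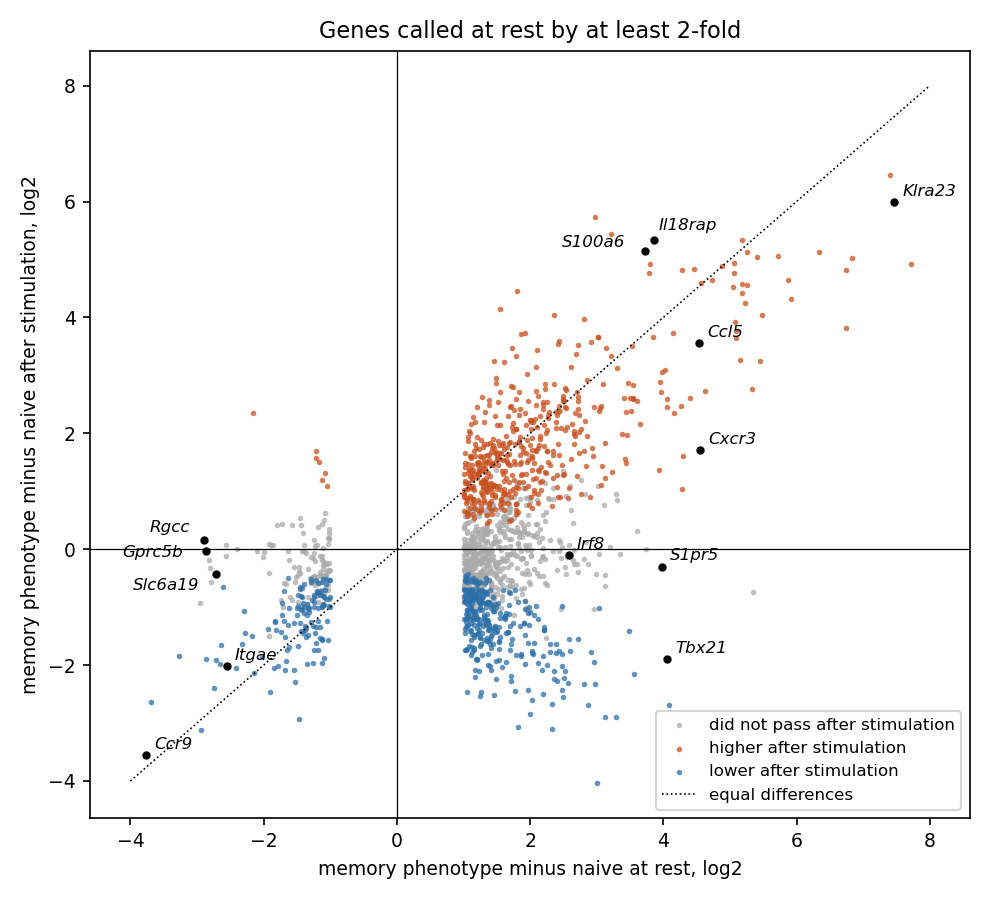
Difference between memory phenotype and naive cells after stimulation against the difference at rest (both log2) for each gene called at rest with at least a 2-fold difference; colours give the call after stimulation, the dotted line marks equal differences and 13 genes are named. Ccr9 and Itgae lie near the line, Rgcc and Irf8 near 0 after stimulation and Tbx21 below 0 at -1.90.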

How the data were processed

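Total RNA of each sample was amplified from oligo-dT with T7, labelled with Cy3 and hybridised to 1-colour Agilent arrays of 60-base probes, per the labels' protocols. The authors deposited scanner output of Agilent Feature Extraction 9.5.3.1, per the file headers, and its processed signal intensity is already background-subtracted. They also deposited a table of signal values whose scale no label used here states: every array has a minimum of 30, a 25th percentile of 44 and a median of 149, and its log2 values correlated at 0.975 to 0.984 with those of the scanner intensity, so the scale is linear, floored and matched between arrays, and it served as an alternative.

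Levels were log2 of the processed intensity minus the 75th percentile of the array, after control spots and outlier spots were left out and spots of a probe were averaged. A probe was tested if well above background on at least 3 of 4 arrays of any group (27349 of 41174 probes), and a gene took its brightest tested probe, giving 18402 genes, of which 6041 had several tested probes and 23 had probes called in opposite directions. Names came from RefSeq tables for 32734 probes and from the files for 8440. All 16 arrays were fitted by group means in limma 3.58.1 (R 4.3.3; tables in Python 3.11.15 with pandas 2.3.3), with Benjamini-Hochberg adjustment over all genes and a threshold of 0.05. The script was tested on simulated data.

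Deviations of same-numbered resting arrays from their group means correlated at 0.376, 0.336, 0.302 and 0.585. For naive replicate 3 a memory phenotype array of another number correlated more highly. The numbers stand for 4 independent sorts per the labels, but arrays of the same number also have the same position on their slides. Sort and position therefore cannot be told apart, here or where single replicates or the sort block are named above. The fit with the number as a block is given where it moves a count of calls by over 1.5 times. Probe positions are those of mm7 per the file headers, and the exon or UTR of each probe was not analysed here. The number of arrays limits the precision.

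The members and gene lists were chosen with earlier results of these data known. Named genes were the 12 largest measured differences in each direction that did not overlap, the 6 largest bounds in each direction, up to 4 called members of each list, members that did not pass where the text gives values, and the sort markers. Some of these are not reported here. Further members named in the report were chosen after their values were seen. Alternatives were quantile scaling, a median centring, normexp (its fit failed on 3 stimulated arrays, which took the median parameters of the others), the authors' table, other filters, the mean of probes, the 8 resting arrays alone, the block and leaving out each array.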

Additional observations from a re-analysis of the deposited data

Results flagged for a closer look

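In 19 of 251 groups of 4 resting arrays examined, 1 array stood apart from the other 3 by Dixon's test. Chance does so in about 1 in 20 groups, which would be about 12.6 of these. Memory phenotype replicate 1 was that array for Pdcd1 (1.79), the interferon-stimulated Oasl2 (2.46), Tsc22d3 (4.32), the dehydrogenase Acadl (0.91) and the B cell receptor Cd22 (-4.20). Memory phenotype replicate 4 was it for Klrc2 (-1.88), Bcl2a1b (3.88), S1pr5 (-3.04) and Adora2a (1.45). Naive replicate 1 was it for Ccr9 (1.88), Lrrc75b (-0.60), Itgae (3.70), Itgb1 (-0.88), Aurkb (-3.88), Cd244a (-4.19), Ctla4 (-1.32) and Cd8a (5.62). Naive replicate 2 was it for Klre1 (-6.66) and naive replicate 4 for Sox4 (-1.25).

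For 9 of the genes with the largest differences the difference between memory phenotype and naive cells changed with stimulation by the interaction test of limma. The change was -1.47 on the log2 scale for Klra23, -1.93 for Klra16, -1.20 for Klrc1 and -6.09 for Cdk5r2, all higher at rest. For genes lower at rest the change was 1.06 for Pcsk1, 1.43 for Lrrc75b, 3.05 for Rgcc, 2.84 for Gprc5b and 2.29 for Slc6a19. All 9 changes are opposite in sign to the resting difference. The resting values that chose these genes also enter the change, so the choice alone favours a smaller difference after stimulation.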

How the results depend on the processing

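Slide could not be fitted as a block because each group has its own slide, and dim probes limit what small differences can show. The counts of higher genes were 1672 with normexp and 479 when only genes averaging a level of 0 or above were tested, and those of lower genes 2203 in the authors' table, 2425 with the replicate block and 871 to 1960 when 1 array was left out. Genes with the same call at rest and after stimulation were 174 higher and 139 lower under that restriction, and 672 lower with the replicate block. With the block, all 127 named genes kept their call. Median differences of lists moved as follows, and the cause was not tested. With normexp they were 2.46 for NK-type lectin receptors, 0.88 for granule proteins, 0.0167 for cytokines, 0.58 for chemokine receptors, 0.24 for glycosyltransferases, 0.85 for memory transcription factors, 0.15 for inhibitory receptors, 0.68 for cell cycle genes, and 0.13, 0.95, 0.32, 0.88, 0.48 and 0.31 for B cell, NK, gamma delta, dendritic, CD4 and erythrocyte markers, while Il23r reversed to -0.0327. In the authors' table they were 3.43, 1.04, 0.0669 and 0.80 for the first 4 of these lists, 0.0973 for the BCL-2 family, 0.87 for cell cycle genes and 0.18, 0.54, 1.07 and 0.36 for B cell, gamma delta, dendritic and erythrocyte markers. Under the same restriction, where no B cell, gamma delta or erythrocyte marker was left, they were 6.34, 0.93, 1.53 and 2.53 for the same 4 lists, 0.12 for cytokine receptors, 0.13 for glycosyltransferases, 0.85 for memory transcription factors, -0.37 for naive genes, 0.0518 for inhibitory receptors, 0.19 for cell cycle genes, -0.21 for fatty acid oxidation and -0.40, 0.88, 0.40 and 0.44 for NK, myeloid, dendritic and CD4 markers. Without a filter granule proteins were at 1.10, glycosyltransferases at 0.31, memory transcription factors at 0.91 and gamma delta markers at 1.47. With a filter on the resting groups cytokines were at 1.45 and gamma delta markers at 4.57, and quantile scaling gave 0.12 for the release machinery and 0.0625 for receptor signalling. Leaving out 1 array gave -0.039 to 0.10 for the release machinery, 0.44 to 0.96 for cytokines, 0.92 to 1.12 for memory transcription factors, 0.13 to 0.41 for inhibitory receptors, -0.0033 to 0.18 for the BCL-2 family, -0.25 to 0.10 for purinergic and related genes and 1.43 to 1.88 for NK markers.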
